A study of Mus musculus with 8 samples.

Results

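The genes described here are 10 regulators of fat burning and mitochondrial number: the lipid-sensing nuclear receptors Ppara, Ppard and Pparg, their partner receptors Rxra, Rxrb and Rxrg, the coactivators Ppargc1a and Ppargc1b (PGC-1α and PGC-1β), and the oestrogen-related receptors Esrra and Esrrg. They were chosen by name, as 10 of the 23336 gene rows of one count table, and all 10 passed the filter on low counts. Expression was measured by total RNA sequencing of skeletal muscle from female C57BL/6 mice at postnatal day 2, 4 wild-type and 4 carrying the ΔDMR1-U2 deletion of the imprinted Igf2 locus. The sources used here state neither which muscle was taken, nor which parent passed on the deletion, nor whether animals were littermates, so p-values measure only the spread between these libraries. The question was whether these regulators differed between the genotypes.

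A PPAR acts as a pair with an RXR. The pair sits on DNA at repeats of the hexamer AGGTCA, is switched on by fatty acids or their derivatives, and drives genes that import, store and oxidise fat. PGC-1 coactivators have no DNA-binding preference of their own; they dock on PPARs and on oestrogen-related receptors, and in muscle they raise the genes of mitochondrial respiration in response to energy demand, cold and exercise.

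Libraries held 16084413 to 26913636 counts. As a check of the genotype labels, Igf2as, the antisense gene of that locus named in the study's title, was at 5.93 ± 0.269 CPM (counts divided by scaled library size) in ΔDMR1-U2, against 63.5 ± 9.70 CPM for wild-type (SD, n = 4 each). The library labelled ΔDMR1-U2 1A had 2.50 CPM of Xist, which coats an inactive X chromosome, against 1270 to 1895 CPM in the other 7, which goes against its female label. Library ΔDMR1-U2 1B stood at the end of the first principal component, at -41.7. The other ΔDMR1-U2 libraries were at -16.9 to 0.28 and the wild-type libraries at 10.3 to 23.9, so this component also separated the genotypes. Results are therefore given with all libraries and, where these 2 libraries matter, without them. The 8 skeletal muscle fibre markers summed to 161019 to 181171 CPM in the ΔDMR1-U2 libraries and 176519 to 208007 CPM in the wild-type libraries, so the tissue label held in each. All 8 had a log2 fold change below 0, from -0.34 for Myh3 to -0.02 for Des, and none was called (smallest adjusted p 0.0917, for Mylpf, edgeR).

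No member of the 10 was called different between the genotypes at an adjusted p under 0.05 (edgeR quasi-likelihood test, Benjamini-Hochberg over 15241 genes), where 1.13% of all genes were called. DESeq2 also called 0. In edgeR 3 of the 10, Ppara, Ppard and Rxrg, had an unadjusted p under 0.05, where 21.3% of all genes tested had one, and DESeq2 counted 3 as well. The median log2 fold change of the 10 (ΔDMR1-U2 over wild-type throughout) was 0.02 and their median absolute value 0.14, against -0.00 and 0.14 over all genes. Ppara was the 1 gene of the 10 whose groups did not overlap, with ΔDMR1-U2 above. Groups were apart in 12.8% of all genes tested, with ΔDMR1-U2 above in 6.4% and below in 6.38%.

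**Figure D1:**
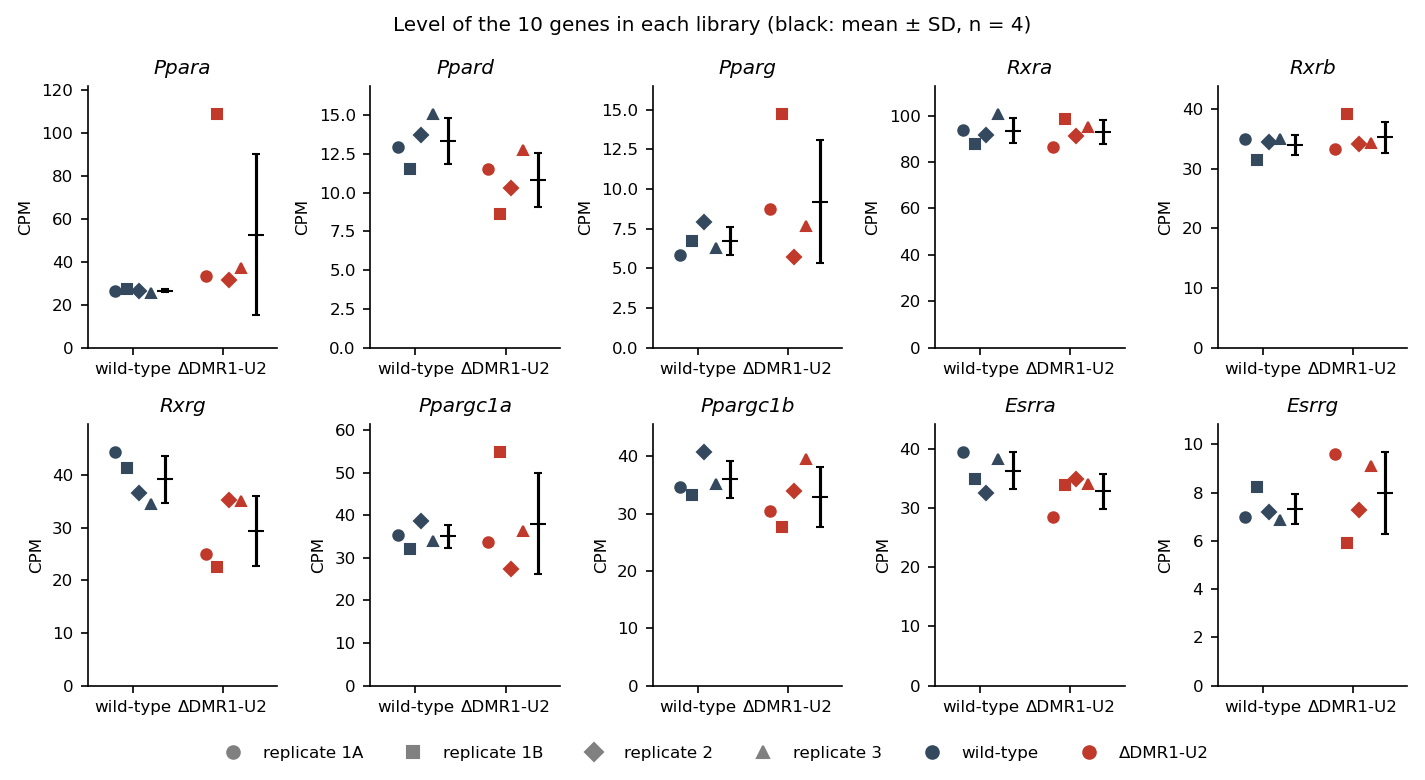
Level of each gene in CPM (y axis, from 0) in the 4 wild-type and 4 ΔDMR1-U2 libraries, with a marker shape for each replicate name and the mean ± SD in black. The ΔDMR1-U2 library 1B stands alone for Ppara at 109 CPM, while Rxra and Rxrb lie at the same height in both groups.

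The genes spanned a wide range of abundance. To compare genes with each other, counts were divided by the length of their merged exons and rescaled to the same total in every library (TPM). In wild-type muscle the order of mean TPM was Rxra at 67.7 ± 4.12, Rxrg at 67.4 ± 6.23, Ppargc1b at 35.7 ± 4.49, Rxrb at 33.8 ± 1.89, Esrra at 32.7 ± 1.66, Ppara at 27.2 ± 1.42, Ppargc1a at 21.1 ± 2.22, Pparg at 8.99 ± 1.55, Ppard at 7.02 ± 0.843 and Esrrg at 4.68 ± 0.482 (SD, n = 4). Neighbours whose wild-type ranges overlapped were Rxra and Rxrg, Ppargc1b and Rxrb, Rxrb and Esrra, and Pparg and Ppard. The other steps down the order exceeded the range over libraries. Rxra lay above 86.8% of all tested genes in wild-type TPM and Esrrg above 22.1%.

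Within each family, 1 or 2 members supplied most of the transcripts. Rxra and Rxrg gave 40.1% ± 2.63 and 39.9% ± 3.53 of the RXR total in wild-type, and Rxrb 18.8% to 20.9%. Ppara gave 63.1% ± 2.30 of the PPAR total, Pparg 20.7% ± 2.05 and Ppard 16.3% ± 1.85. Esrra gave 87.4% ± 1.59 of the transcripts of the oestrogen-related pair, and Ppargc1b 62.9% ± 0.754 of the PGC-1 pair. In ΔDMR1-U2 the Ppara share of the PPAR total was 66.0%, 82.2%, 71.3% and 69.2% in its libraries named 1A, 1B, 2 and 3, each above the wild-type range of 60.6% to 65.1%. Summed over the family, RXR transcripts were at 147 to 174 TPM in ΔDMR1-U2 and 166 to 172 TPM in wild-type.

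**Figure D2:**
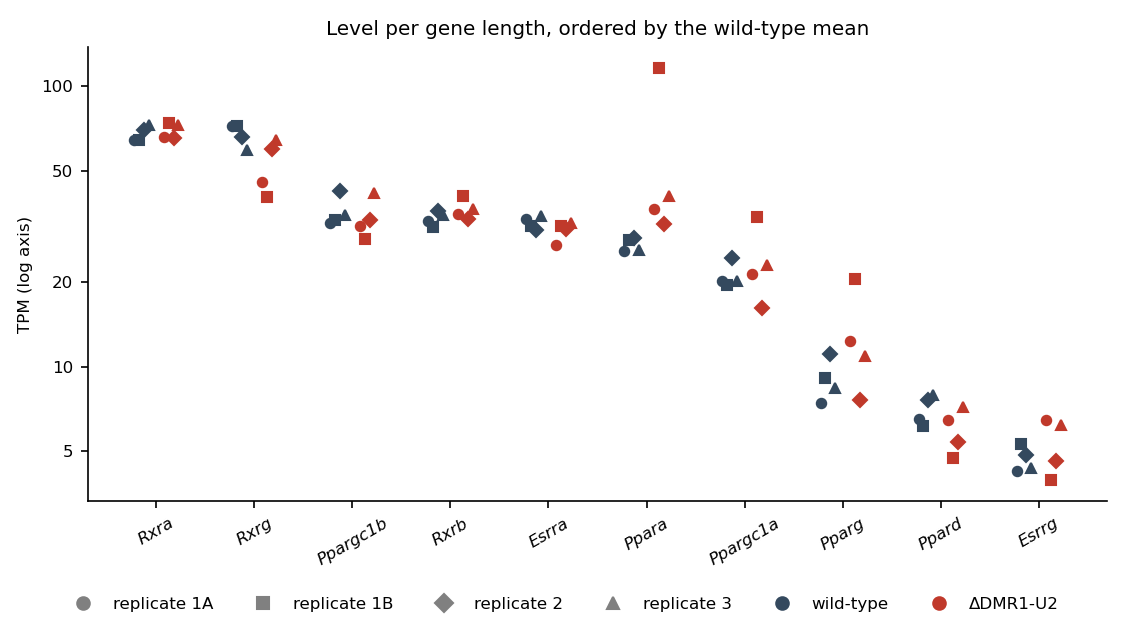
TPM on a log axis for each gene (x axis, ordered by the wild-type mean) in the 8 libraries, wild-type in dark blue and ΔDMR1-U2 in red, with a marker shape for each replicate name. The 3 lowest genes, Pparg, Ppard and Esrrg, lie under the other 7 in wild-type muscle.

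Among the PPARs, Ppara, the fatty-acid sensor that drives oxidation, had the largest change of the 10 genes. It was at 33.5, 109, 31.6 and 36.9 CPM in ΔDMR1-U2 (1A, 1B, 2 and 3, the order of every list of values), and at 26.5, 27.1, 26.6 and 25.4 CPM in wild-type. Every ΔDMR1-U2 library lay above every wild-type library, and 1B lay far above the other 3. The fitted difference was 1.00 on the log2 scale (standard error, SE, 0.35, 95% confidence interval 0.23 to 1.77, adjusted p = 0.147, edgeR). Library 1B held 4.13 times the wild-type mean and the other 3 together 1.29 times. Without 1B the difference was 0.37 (SE 0.08, adjusted p = 0.0641, edgeR), and without 1A it was 1.17 (adjusted p = 0.120, edgeR). Without 1A and 1B together it was 0.38 (adjusted p = 0.134, edgeR). With any 1 of the 8 libraries left out, its adjusted p ran from 0.0641 to 0.287. In mm10 its gene spans 85734983 to 85802819 of chromosome 15, plus strand.

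Pparg, the receptor of fat cell formation and fat storage, lies on chromosome 6 from 115360951 to 115490399. It was at 8.73, 14.7, 5.73 and 7.65 CPM in ΔDMR1-U2 and at 5.84, 6.74, 7.89 and 6.28 CPM in wild-type. The groups overlapped, with 1B highest and ΔDMR1-U2 library 2 lowest. The fitted log2 difference was 0.46 (SE 0.24, 95% confidence interval -0.08 to 0.99, adjusted p = 0.299, edgeR), and 0.14 without 1B (adjusted p = 0.713). Ppard, the receptor linked to oxidative metabolism in adult muscle, lies on chromosome 17 from 28232700 to 28301474. It pointed the other way, at 11.5, 8.64, 10.3 and 12.8 CPM in ΔDMR1-U2 and 13.0, 11.6, 13.7 and 15.1 CPM in wild-type. Its groups overlapped, with the lowest value again in 1B. The fitted log2 difference was -0.30 (SE 0.13, 95% confidence interval -0.58 to -0.02, adjusted p = 0.216, edgeR), and -0.20 without 1B.

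Of the RXRs, the common partners of PPARs and of several other receptors, Rxra and Rxrb had the narrowest intervals of the 10 genes. Rxra, on chromosome 2 from 27676440 to 27762957, was at 86.5 to 98.8 CPM in ΔDMR1-U2 and 87.9 to 101 CPM in wild-type. Its log2 fold change was -0.01, with a 95% confidence interval of -0.15 to 0.13 (adjusted p = 0.945, edgeR). Rxrb, on chromosome 17 from 34031812 to 34038399, was at 35.3 ± 2.64 CPM against 34.0 ± 1.71 CPM, with a log2 fold change of 0.06 and an interval of -0.11 to 0.22 (adjusted p = 0.708, edgeR), or 0.0018 without 1B. The groups of both genes overlapped. Rxrg, the form enriched in skeletal muscle and brain, stood apart from these at 25.0, 22.6, 35.2 and 35.1 CPM in ΔDMR1-U2 and 44.4, 41.4, 36.6 and 34.6 CPM in wild-type. Libraries 1A and 1B lay under all wild-type libraries, while ΔDMR1-U2 libraries 2 and 3 lay within the wild-type range. The fitted log2 difference was -0.41 (SE 0.15, 95% confidence interval -0.74 to -0.09, adjusted p = 0.154, edgeR), and -0.16 without 1A and 1B together (adjusted p = 0.567). Rxrg lies on chromosome 1 from 167598384 to 167639623.

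Neither PGC-1 coactivator differed by more than the spread between libraries. Ppargc1a, the form most responsive to exercise and cold, was at 33.7, 54.8, 27.3 and 36.3 CPM in ΔDMR1-U2 and 35.4, 32.2, 38.7 and 33.9 CPM in wild-type. Library 1B was again the highest, and ΔDMR1-U2 library 2 the lowest, of the 8. The log2 fold change was 0.12 with a 95% confidence interval of -0.27 to 0.50 (adjusted p = 0.733, edgeR), and it turned to -0.11 without 1B. Ppargc1a lies on chromosome 5 from 51454250 to 51567726 on the minus strand. Ppargc1b, its relative, was at 27.6 to 39.6 CPM against 33.2 to 40.7 CPM, with a log2 fold change of -0.13 and an interval of -0.38 to 0.12 (adjusted p = 0.536, edgeR). Without 1B it was -0.05, and without 1A and 1B together 0.03. Ppargc1b was lowest in library 1B, the library in which Ppargc1a was highest, and PGC-1α supplied 54.6% of PGC-1 transcripts there against 32.8% to 40.1% in the other 7 libraries.

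The oestrogen-related receptors, which bind no known natural hormone and carry PGC-1 to the genes of respiration, also overlapped between the groups. Esrra was at 28.5, 33.9, 34.9 and 34.1 CPM in ΔDMR1-U2 and 39.5, 34.9, 32.6 and 38.3 CPM in wild-type, with a log2 fold change of -0.14 (95% confidence interval -0.34 to 0.05, adjusted p = 0.376, edgeR). Its lowest library was ΔDMR1-U2 1A, and without it the value was -0.08. Esrra, on chromosome 19 from 6910977 to 6921813, shares 164 exonic bases with neighbours, among them Trmt112 on the opposite strand, and reads from these bases cannot be assigned, since no source used here states whether counting used strand. The other 9 genes share no exonic base with another annotated gene. Esrrg, on chromosome 1 from 187608791 to 188214885, was at 9.60, 5.92, 7.28 and 9.13 CPM in ΔDMR1-U2 and 7.01, 8.23, 7.22 and 6.88 CPM in wild-type, with a log2 fold change of 0.12 (interval -0.21 to 0.46, adjusted p = 0.676, edgeR). That value was 0.02 without 1A and 0.24 without 1B. The lowest and the highest of the 8 Esrrg values both belonged to ΔDMR1-U2 libraries.

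**Figure D3:**
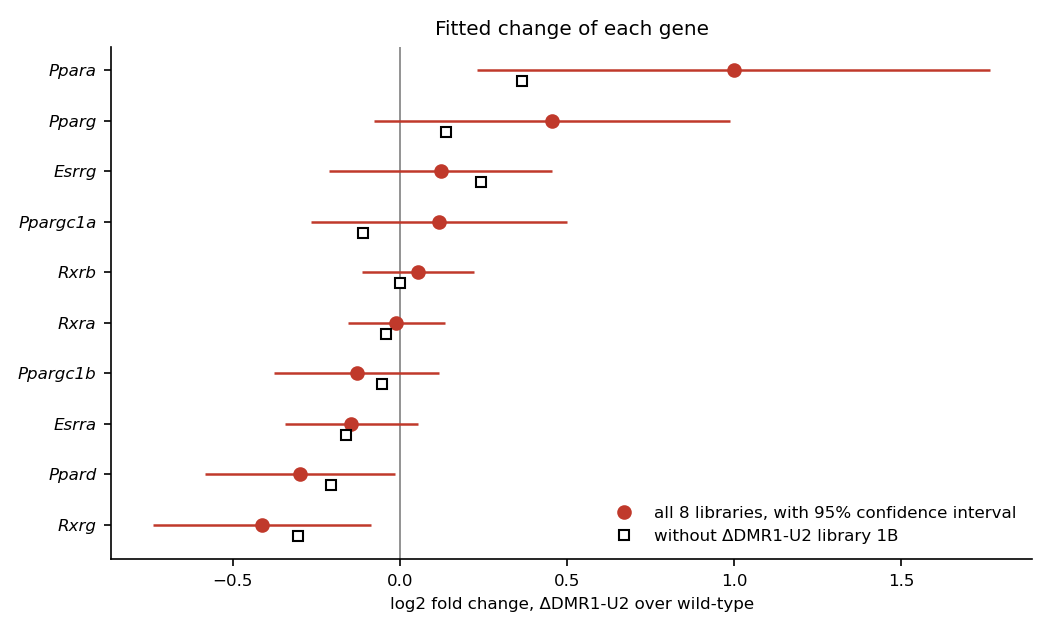
Fitted log2 fold change of ΔDMR1-U2 over wild-type (x axis) for each gene, as red points with 95% confidence intervals from all 8 libraries, and as open squares without ΔDMR1-U2 library 1B. Ppara moves from 1.00 to 0.37 and Ppargc1a from 0.12 to -0.11, while Rxra and Rxrb stay near 0.

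The authors' deposited table gives the same order for the strongest differences. Its ratios, turned to ΔDMR1-U2 over wild-type, are log2 values of 1.00 for Ppara, 0.46 for Pparg, -0.30 for Ppard and -0.41 for Rxrg. In the authors' deposited table the adjusted p is 0.768 for Ppara, and the smallest of the 10 is 0.373 for Rxrg. Rxrg is also the only gene of the 10 with an unadjusted p under 0.05 there.

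The genes whose profile over the 8 libraries came closest to that of Ppara were Hoga1, an aldolase of hydroxyproline breakdown, Glul, glutamine synthetase, Car14, a membrane carbonic anhydrase, Tsc22d3, a leucine zipper protein induced by glucocorticoids, and Plin5, which coats lipid droplets at mitochondria. Their root-mean-square differences from Ppara, on centred log2 CPM, were 0.09, 0.13, 0.13, 0.15 and 0.16. All 5 had their highest level in ΔDMR1-U2 1B, with Glul at 354 CPM there against 87.7 to 153 CPM in the other libraries and Plin5 at 156 CPM against 29.5 to 61.9 CPM. Since they were picked for likeness to Ppara, which itself was highest in 1B, that peak follows from the choice. None of the 5 was called, and the groups of Tsc22d3 overlapped. Over the 7 libraries without 1B the closest genes were others, Zim1, an imprinted zinc-finger gene, Aldh9a1, an aldehyde dehydrogenase, Nrbp2, Peli2, a ubiquitin ligase, and Tshz3, a zinc-finger gene, at differences of 0.05 for each. Zim1 was at 558 to 701 CPM in ΔDMR1-U2 and 445 to 457 CPM in wild-type. With all 8 libraries Zim1 (adjusted p = 0.0344, edgeR) and Nrbp2 (adjusted p = 0.0475, edgeR) were called. They were picked for likeness to Ppara, whose groups did not overlap, so their own separation follows in part from that choice.

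Markers of fat cells were highest in the same library. Of 9 white adipocyte markers, 8 had their highest level in ΔDMR1-U2 1B, where their sum was 1298 CPM against 473 to 590 CPM in the other ΔDMR1-U2 libraries and 309 to 438 CPM in wild-type. Cfd, the adipocyte protease adipsin, was at 66.6 CPM in 1B against 3.33 to 15.8 CPM elsewhere, and Adipoq, adiponectin, at 37.7 CPM against 9.07 to 22.3 CPM. The ninth, Lep, had 1 to 12 counts per library. Over the 8 markers of at least 1 CPM the median log2 ratio to the wild-type mean was 1.73 in 1B. For the mean of the other 3 ΔDMR1-U2 libraries it was -0.16. Plin4, Fabp4 and Lipe, which are lipid-handling genes also expressed in muscle, lay above wild-type in all 4 ΔDMR1-U2 libraries. Ucp1, the defining gene of brown fat, had 0 to 3 counts per library. The 7 brown adipocyte markers summed to 26.7 to 42.5 CPM in ΔDMR1-U2 and 16.7 to 19.9 CPM in wild-type. Most of the sum was Cidea, which was called (log2 fold change 1.07, adjusted p = 0.0301, edgeR). Elovl3 at -0.25 and Dio2 at 0.29 were not called (adjusted p 0.559 and 0.416, edgeR). Otop1, Adrb3 and Slc27a2 had at most 1, 5 and 6 counts in any library. Markers of other cell types also varied. The 3 Schwann cell markers summed to 70.9 to 114 CPM in ΔDMR1-U2 and 30.8 to 64.3 CPM in wild-type. The 3 chondrocyte markers summed to 33.8 to 567 CPM and 53.9 to 1255 CPM. Sums for endothelial cells, fibroblasts, macrophages and red blood cells overlapped between the groups. The part of fat cells and of these other cell types in the levels of Ppara, Pparg and Ppargc1a was not tested, in 1B or in the other libraries. In bulk tissue, more cells of a type and more RNA per cell cannot be told apart.

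**Figure D4:**
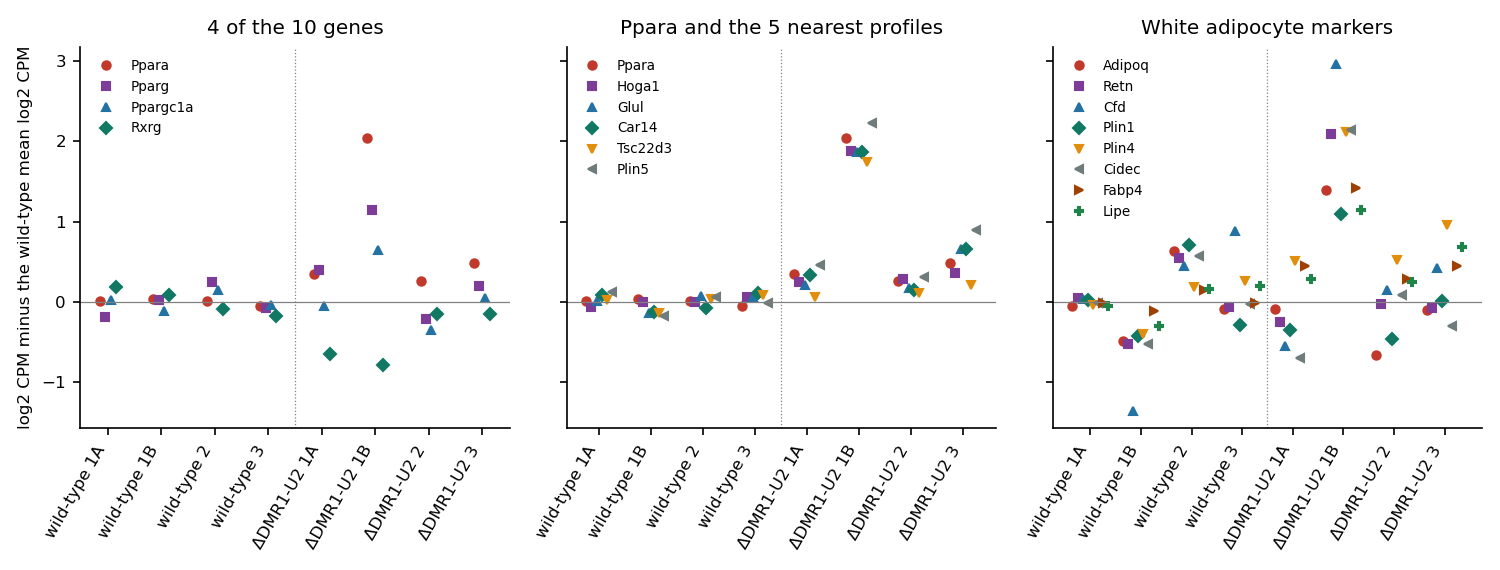
Log2 CPM minus the wild-type mean of log2 CPM (y axis) in each library (x axis) for 4 of the genes, for Ppara with its 5 nearest profiles, and for the 8 white adipocyte markers of at least 1 CPM. ΔDMR1-U2 library 1B is the highest of the 8 for Ppara, its 5 nearest genes and all 8 markers, and the lowest for Rxrg. The 5 nearest genes were picked for likeness to Ppara, so their peak in 1B follows from that choice.

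Stretches of DNA before a transcription start are shown for 3 of these genes. Ppara and Rxrg had the largest changes in either direction, and Ppargc1a changed sign with 1 library. They come from RefSeq windows of the GRCm38.p6 build, the same assembly as mm10, each from 250 bases before to 50 after a transcription start. The windows were searched on both strands for AGGTCA, the hexamer bound by PPAR-RXR pairs and oestrogen-related receptors, for its repeat with 1 spacer base AGGTCANAGGTCA (which contains AGGTCA), for TGACG, the core of the cyclic-AMP response element, and for the GC box GGGCGG. Capitals mark matches on either strand. The Ppara stretch is the first 50 bases of its window, chr15:85735526-85735575, for the start at 85735776. The Rxrg stretch is the 250 bases before its downstream start, chr1:167618015-167618264. Both lie inside the gene spans given above. The Ppargc1a stretch is 249 bases on the minus strand, chr5:51567727-51567975.
Ppara: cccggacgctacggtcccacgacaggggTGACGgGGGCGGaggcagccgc
Rxrg: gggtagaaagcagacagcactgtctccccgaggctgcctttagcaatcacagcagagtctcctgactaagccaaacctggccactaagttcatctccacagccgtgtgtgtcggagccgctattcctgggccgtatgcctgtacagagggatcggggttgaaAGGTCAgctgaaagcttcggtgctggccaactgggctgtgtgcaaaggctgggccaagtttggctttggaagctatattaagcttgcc
Ppargc1a: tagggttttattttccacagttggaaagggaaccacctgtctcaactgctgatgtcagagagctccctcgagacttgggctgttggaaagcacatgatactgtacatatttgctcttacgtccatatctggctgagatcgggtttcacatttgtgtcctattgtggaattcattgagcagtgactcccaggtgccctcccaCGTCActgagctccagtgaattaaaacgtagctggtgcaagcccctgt
The Ppara stretch holds 1 TGACG and 1 GC box beside each other, the Rxrg stretch 1 AGGTCA, and the Ppargc1a stretch 1 TGACG core, read on the opposite strand. Over 17 windows of 9 of the genes, AGGTCA occurred in 4 (in Rxra, Rxrg and 2 of Pparg), against 16.3% of all 32851 windows. The spaced repeat occurred in 0 of the 17 and in 0.040% of all windows. TGACG occurred in 4 of the 17, against 20.8% of all windows, and GGGCGG in 10 of the 17, against 35.7%. These are letter matches, and the counts sum the transcripts of all starts of a gene, so no level can be tied to 1 window.

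The genes around the 10 regulators were examined by role, with lists of which some members were known from earlier results of these data. In the supply of fatty acid ligands, 0 of 8 tested genes were called and the median log2 fold change was 0.20. At an unadjusted p under 0.05 (edgeR) 4 of the 8 were higher and 0 lower, where 10.4% and 10.9% of all genes were. In 3 of the 8 the ΔDMR1-U2 libraries lay above all wild-type libraries, against 6.4% of all genes. Fabp4, the adipocyte fatty-acid binding protein and itself an adipocyte marker, was at 199 to 436 CPM in ΔDMR1-U2 and 150 to 180 CPM in wild-type, with a log2 fold change of 0.72 (adjusted p = 0.104, edgeR). With 1 library left out its value ran from 0.39 to 0.84. Fabp3, the muscle form, had 0.13 (adjusted p = 0.604). In the handling of retinoids, from which RXR and retinoic acid receptor ligands derive, 0 of 11 tested genes were called (median 0.08). Aldh1a2, which makes retinoic acid, was at 25.3, 25.5, 22.6 and 25.0 CPM against 20.6, 19.9, 18.0 and 15.4 CPM, without overlap, at 0.42 (adjusted p = 0.0639, edgeR), and Dhrs3, which reduces retinal, had 0.40 (adjusted p = 0.236), or 0.18 without 1B. Others of the list pointed down. Aldh1a3, which also makes retinoic acid, had -0.41 (adjusted p = 0.0619, edgeR), and the retinoic acid binding protein Crabp1 had -0.93 (adjusted p = 0.0767), both without overlap between the groups. At an unadjusted p under 0.05 the list held 1 higher and 2 lower genes, where 10.4% and 10.9% of all genes were.

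Other receptors that pair with RXR gave 0 called of 11 tested, with a median log2 fold change of 0.08. Thra, the thyroid hormone receptor α, had 0.10 (adjusted p = 0.383, edgeR) and Rara, the retinoic acid receptor α, had -0.16 (adjusted p = 0.487). Of 12 coactivators 0 were called (median 0.10). Crebbp, the acetyltransferase CBP, had 0.23 (adjusted p = 0.168, edgeR) and Ncoa1, a p160 coactivator, 0.06 (adjusted p = 0.655). Of 10 corepressors 0 were called (median -0.01), with Ncor1, the main corepressor of unliganded receptors, at 0.13 (adjusted p = 0.248, edgeR) and Mybbp1a at 0.00 (adjusted p = 0.992). Of 24 signalling genes upstream of PGC-1 0 were called (median -0.05). Mef2c, a muscle transcription factor that drives Ppargc1a, was at 520 to 804 CPM against 793 to 917 CPM and had -0.26 (adjusted p = 0.274, edgeR). Its lowest level was in 1B, without which it had -0.13. Prkaa2, the muscle catalytic subunit of AMP-activated kinase, had -0.02 (adjusted p = 0.929).

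Of 30 tested PPAR target genes of fatty acid use, 6 rose and 0 fell, which is read against 0.512% of all genes called higher and 0.617% called lower. The median log2 fold change was 0.38, and 20 of the 30 were higher at an unadjusted p under 0.05, where 10.4% of all genes were. Like the other lists, this one was chosen with earlier results of these data known, so these shares do not test it. The number of genes called, 6 with all libraries, was 2 without ΔDMR1-U2 library 3 or without any 1 of the wild-type libraries, and 10 without ΔDMR1-U2 library 2. The thioesterases Acot1 and Acot2, close paralogs between which the counting could split reads, rose by 1.68 (SE 0.28) and 1.44 (SE 0.24), each with an adjusted p of 0.0301 (edgeR). Acot1 was at 22.1, 56.2, 22.6 and 42.3 CPM in ΔDMR1-U2 and 9.86, 10.6, 10.7 and 13.6 CPM in wild-type. All 4 ΔDMR1-U2 libraries lay above wild-type, and both genes kept their call in 3 of the 8 fits with 1 library left out. Angptl4, an inhibitor of lipoprotein lipase, rose by 1.19 and the fatty acid transporter Cd36 by 0.80, and these were called in all 8 such fits. Mlycd, malonyl-CoA decarboxylase, rose by 0.49 and was called in 2. Fgf21, the 31st gene of this list, did not pass the filter on low counts.

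The level of the PPAR target list varied between the ΔDMR1-U2 libraries. Its median difference from the wild-type mean was 0.15, 0.67, 0.14 and 0.49 in log2 for ΔDMR1-U2, and -0.07 to 0.11 in wild-type. Libraries 1B and 3 were first and second in the list, and 1A and 2 were close to the wild-type range. They were also first and second among the ΔDMR1-U2 libraries in Ppara and in the summed white adipocyte markers (1298 and 590 CPM). The same order held for the median of the ligand supply list (0.37 and 0.30), which also holds the marker Fabp4. Plin4 and Fabp4 made up most of the marker sum, at 652 and 436 CPM in 1B and 292 and 221 CPM in library 3. Among the ΔDMR1-U2 libraries, library 3 was second for Plin4, Cfd, Plin1 and Lipe, but not for Adipoq, Retn, Cidec or Fabp4. Any link between these levels was not tested. Without 1B the list median was 0.29 with 6 genes called. Without 1A it was 0.47 with 7 called, and without 1A and 1B together 0.32 with 4 called.

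Of 20 tested PGC-1 and oestrogen-related receptor target genes of mitochondria, 0 rose and 2 fell, where 0.512% and 0.617% of all genes were called higher and lower, and the median log2 fold change was -0.06. At an unadjusted p under 0.05 4 were lower, against 10.9% of all genes, and in 4 the ΔDMR1-U2 libraries lay below all wild-type libraries, against 6.38% of all genes. Idh3a, a subunit of the citric acid cycle enzyme isocitrate dehydrogenase, was at 198, 173, 184 and 169 CPM in ΔDMR1-U2 and 245, 227, 261 and 243 CPM in wild-type. The groups did not overlap, and the gene fell by 0.43 in log2 (SE 0.07, adjusted p = 0.0301, edgeR). Cyc1, cytochrome c1 of respiratory complex III, fell by 0.39 (SE 0.08, adjusted p = 0.0426, edgeR). Idh3a was called in 3 and Cyc1 in 1 of the 8 fits that left out 1 library. The summed muscle fibre markers had the same sign, at 161019 to 181171 CPM against 176519 to 208007 CPM, and their part in these values was not tested.

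**Figure D5:**
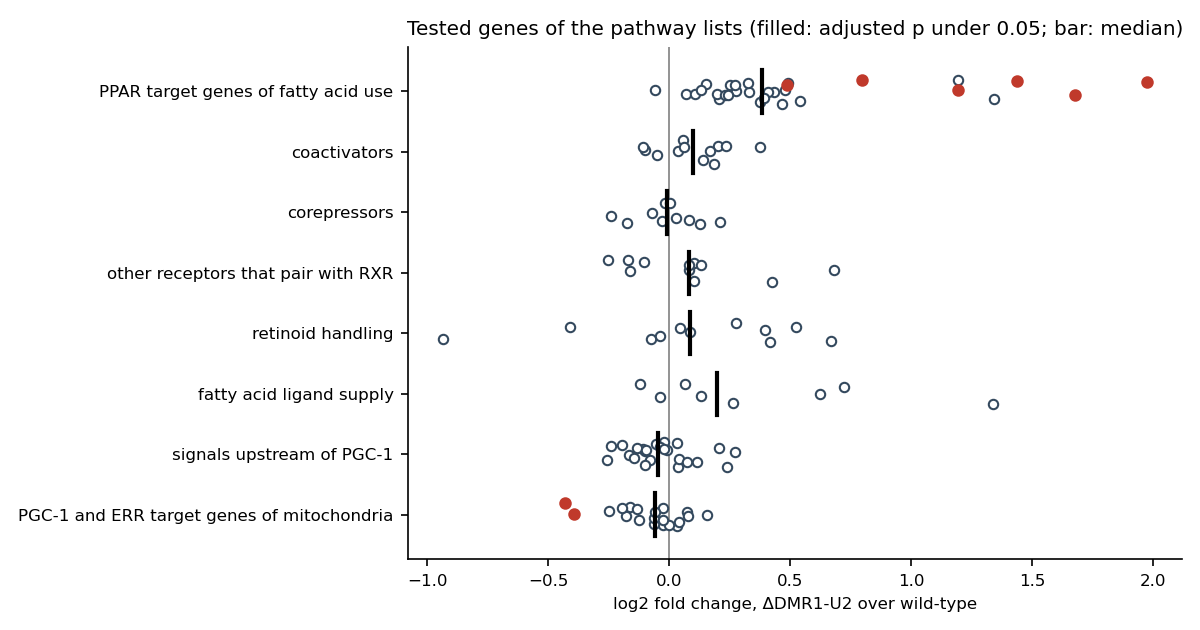
Log2 fold change of ΔDMR1-U2 over wild-type (x axis) of each tested gene in 8 pathway lists (y axis), filled where the adjusted p is under 0.05, with a bar at the list median. The PPAR target genes lie mostly right of 0 with 6 filled points, and the other lists centre between -0.06 and 0.20.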

How the data were processed

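Raw counts per gene in 8 libraries were taken from one table deposited by the authors, without normalization. The submitters' processing notes list TopHat2 2.0.9 and Bowtie2 2.1.0, HTSeq 0.5.4p3, DESeq2 1.4.5 and FastQC 0.10.1, with mm10 as build. No source used here gives the annotation, settings or strand. Further columns deposited by the authors hold mean normalised counts per group (a signal on the count scale), their linear fold ratio of wild-type over ΔDMR1-U2, its log2 value, and a p-value and adjusted p-value, per the file headers. Per the labels' protocols, RNA was depleted of ribosomal RNA, so unspliced precursors can add to gene counts.

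The test was edgeR's (version 4.0.16, R 4.3.3): filterByExpr at a minimum count of 10 kept 15241 genes, library sizes were TMM-scaled, and the quasi-likelihood test was applied with Benjamini-Hochberg adjustment and a threshold of 0.05. Standard errors and 95% confidence intervals, not adjusted for multiple tests, come from this test. Variation between libraries (edgeR's common BCV) was 12.3%. With counts simulated for this comparison (15260 genes tested) the test recovered 64% of 50 genes changed 1.5-fold and 98% of 50 changed 2-fold. The simulation gave every gene the common BCV and held no library that stood apart. These shares therefore may not hold for genes that varied more between libraries, such as Ppara. CPM used the scaled library sizes. TPM used merged exon lengths from GENCODE vM21 of the same assembly, matched by symbol for 20947 genes and by older symbol for 1919, with 470 unmatched. Genes named are the 10 regulators, up to 4 called members of each list with the largest change or the 2 most abundant where none was called, and the 5 profiles nearest to Ppara. Other genes named, among them Cd36, Mlycd, Fgf21, Aldh1a3, Crabp1 and single markers, were chosen after their values were seen. One gene that the rule names is not reported here. Genes and lists were chosen with earlier results of these data known. Alternatives were other scalings, DESeq2 1.42.0, no filter, a robust fit, replicate blocks and leaving out libraries. With 4 libraries a group, their number limits the precision.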

Additional observations from a re-analysis of the deposited data

Results flagged for a closer look

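In 9 of 64 groups of 4 libraries, 1 library stood apart from the other 3 by more than Dixon's 95% critical value; chance flags about 1 in 20 groups. Among the 10 regulators these were Ppara in ΔDMR1-U2, where library 1B was highest at 109 CPM, Rxrb in wild-type, where library 1B was lowest at 31.5 CPM, and Esrra in ΔDMR1-U2, where library 1A was lowest at 28.5 CPM. ΔDMR1-U2 library 1B was also highest for Angptl4 at 116 CPM, for Fabp4 at 436 CPM and for the summed white adipocyte markers at 1298 CPM. The remaining groups were Aldh1a2, lowest in ΔDMR1-U2 library 2 at 22.6 CPM, Ncoa1, lowest in wild-type library 3 at 109 CPM, and the summed brown adipocyte markers, lowest in wild-type library 3 at 16.7 CPM. The 64 groups are not independent, since they share the same libraries and Fabp4 is part of the white adipocyte sum. The number flagged is therefore not a number of separate outliers.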

How the results depend on the processing

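No alternative called any of the 10 regulators, and Ppara, Pparg, Ppard and Rxrg kept their sign in every alternative except Pparg without ΔDMR1-U2 1A and 1B together (-0.00365). In that fit Ppargc1a was at -0.14 and Ppargc1b at 0.0311, and 16 genes in all and 0 mitochondrial target genes were called. With 1 library left out, Ppargc1a ran from -0.11 (without ΔDMR1-U2 1B) to 0.24, Rxra from -0.0403 to 0.0270 and the corepressor median from -0.0164 to 0.0261. That median was 0.000869 under upper quartile scaling. DESeq2 called 930 genes, among them 3 of retinoid handling, 2 of fatty acid ligand supply and 1 upstream of PGC-1, and the robust fit called 3 PPAR target genes. Leaving out 1 library gave 7 to 631 genes in all (116 without ΔDMR1-U2 1B, 137 without 1A, 7 without ΔDMR1-U2 3 or wild-type 1A), 2 to 10 PPAR target genes, 0 to 2 mitochondrial target genes and 0 to 2 of retinoid handling, with 0 to 1 for coactivators and for fatty acid ligand supply. For these changes the cause was not tested.

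Libraries of the same name did not vary together across the groups: the 4 correlations of their deviations ran from -0.22 to -0.08, and 0 of 8 libraries correlated best with its own name. With the replicate block by name 13 genes in all, 1 PPAR target gene and 0 mitochondrial target genes were called, and with the replicate block by number 9, 2 and 0. Ppara was at 0.79 and 0.91 in these fits.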
